A study of Mus musculus and Homo sapiens with 65 samples.

Results

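Glycolysis splits glucose into pyruvate in the cytoplasm, and pyruvate is then either turned into lactate by lactate dehydrogenase or carried into the mitochondrion, where the pyruvate dehydrogenase complex makes acetyl-CoA from it. Cleavage-stage mouse embryos are known for living mainly on pyruvate and lactate, with little use of glucose until later stages. Lactate dehydrogenase is assembled from the A and B subunits encoded by Ldha and Ldhb, and the B form is the one known for its abundance in the mouse egg.

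The genes described here are 10 genes of glycolysis and pyruvate use, taken by gene symbol out of the 32287 genes of each expression table: Hk1, Gpi1, Pfkp, Aldoa, Gapdh, Pgk1, Eno1, Ldhb, Ldha and Pdha1. All 10 were found. They were measured by RNA-seq in 9 libraries of mouse late 2-cell embryos, out of 65 samples in the study, which asked how histone marks change between oocyte and early embryo and what removal of the demethylases KDM5A and KDM5B does to embryonic transcription. There were 2 libraries of embryos treated with alpha-amanitin, a toxin that blocks RNA polymerase II, 2 of embryos whose zygotes were injected with fluorescein-tagged morpholinos against Kdm5a and Kdm5b, 2 injected with mismatch control morpholinos carrying changed bases, and 3 of wild-type embryos. All embryos were cultured in the same medium. The strain, the number of embryos pooled per library and the way alpha-amanitin was given are not stated in the labels, which also do not say whether alpha-amanitin embryos were injected.

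Levels are FPKM, fragments scaled by the length of the transcript and by the mapped fragments of the library, so each is relative to its own library and already per length. Depth in reads is unknown. As a check of the stage, 15 markers of the late 2-cell embryo summed to 17.4 and 18.8 FPKM with alpha-amanitin, and to between 388 and 560 FPKM in the other libraries, while 15 transcripts stored in the oocyte summed to 9302 and 10410 FPKM with alpha-amanitin and to between 3611 and 4797 FPKM elsewhere. Zbed3 alone made up most of the stored sum, at 8251 and 9209 FPKM with alpha-amanitin and between 3024 and 4066 FPKM elsewhere. Of the 14 stored transcripts tested, 2 were called higher with alpha-amanitin than in wild type and 0 lower (limma, adjusted p under 0.05). Over all genes tested, 4.31% were called higher and 25.1% lower. Of the markers of other cells, Foxl2 of granulosa cells, Prm1 of spermatids and the globins Hbb-bs and Hbb-bt were listed at 0 in all 9 libraries. They were the only ones of their lists at 0 throughout. The highest single values of these lists were Tnfaip6 at 3.42, Ldhc at 7.18 and Cd68 at 6.39 FPKM. The globins Hba-a1 and Hba-a2 reached 4.62 and 5.72 FPKM, and Tnp1 and Odf1 of the sperm list 5.44 and 4.21 FPKM. The 10 cumulus and granulosa markers summed to at most 4.22 FPKM, the 11 sperm markers to at most 14.3 and the 9 blood markers to at most 11.3. The 7 oviduct markers summed to 0.00151 and 1.39 FPKM with alpha-amanitin and to between 23.1 and 66.0 elsewhere, led by Epcam, and the part of any of these cells in the results was not tested. Morpholinos bind an RNA without cutting it, so the Kdm5a and Kdm5b transcripts do not check the depletion. Kdm5a had 19.5 and 15.3 FPKM with the Kdm5a+b morpholinos and 12.8 and 9.44 FPKM in the mismatch controls, and Kdm5b had 38.1 and 27.6 FPKM with the morpholinos and 55.3 and 39.6 FPKM in the mismatch controls.

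Ldhb stood far above the other 9 genes in every group. It averaged 102 ± 40.6 FPKM with alpha-amanitin (SD, n = 2), 103 with the Kdm5a+b morpholinos, 84.8 in the mismatch controls and 74.2 ± 28.04 in wild type (SD, n = 3). Its lowest library in each group lay above the highest library of the next gene in that group. Ldhb made up between 46.9% and 95.3% of the summed FPKM of the 10 genes, and the 10 genes together made up between 0.0454% and 0.0836% of all FPKM in a library. In wild type the order of means after Ldhb was Pdha1 at 22.2, Aldoa at 16.9, Ldha at 10.3, Pfkp at 5.93, Pgk1 at 4.98, Gpi1 at 2.18, Hk1 at 1.82, Eno1 at 1.53 and Gapdh at 0.174 FPKM. The wild-type ranges of Pdha1 and Aldoa overlapped, as did those of Ldha, Pfkp and Pgk1 from one to the next, and those of Gpi1, Hk1 and Eno1. Near-identical copies of the genes, described below, are not counted in these means. With copies added, the wild-type libraries had 5.61, 6.60 and 11.5 FPKM for Eno1 and 5.75, 9.62 and 6.83 FPKM for Gpi1. Gapdh with its copies had 4.44, 0.385 and 1.19 FPKM. The low places of Gpi1 and Eno1 therefore depend on whether copies are counted. With alpha-amanitin the order below Ldhb was Pdha1, Aldoa and Pfkp, with means between 3.83 and 1.97 FPKM, and Ldha came last. The alpha-amanitin ranges overlapped from one to the next through Pdha1, Aldoa, Pfkp, Gpi1 and Gapdh. They also did so through Pgk1, Eno1, Hk1 and Ldha, so the last place of Ldha is a rank among values near 0.

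**Figure D1:**
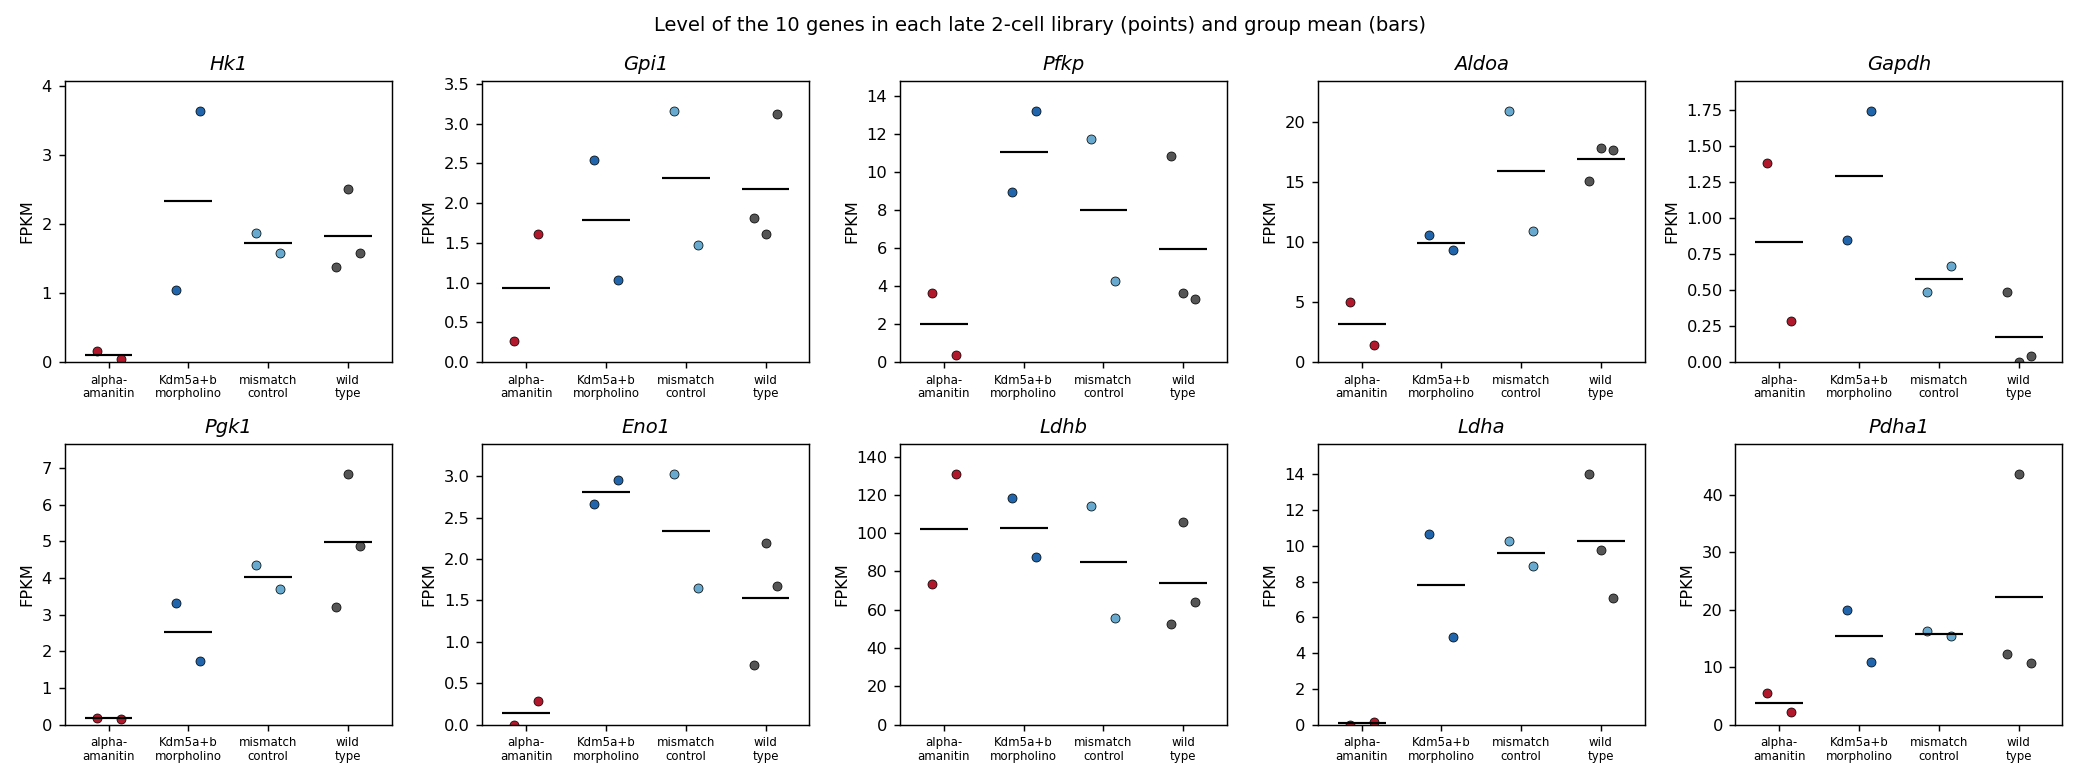
FPKM of each of the 10 genes (y axis, linear, its own scale in each panel) in every library, as points, with the group mean as a bar; groups on the x axis are alpha-amanitin, Kdm5a+b morpholino, mismatch control and wild type. Ldha and Pgk1 lie near 0 in both alpha-amanitin libraries and well above in the other 7, while Ldhb spans 52.8 to 131 FPKM with no gap between groups.

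Of the subunits of lactate dehydrogenase, Ldha was called lower with alpha-amanitin and Ldhb was not called. Ldha (ENSMUSG00000063229.9, mm10 chr7:46841475-46855627, plus strand, protein coding), whose A subunit is usually linked to making lactate from pyruvate, was listed at 0 and 0.167 FPKM with alpha-amanitin, against 14.0, 9.77 and 7.05 FPKM in wild type. It had 10.6 and 4.92 FPKM with the Kdm5a+b morpholinos and 10.2 and 8.89 FPKM in the mismatch controls. The alpha-amanitin libraries lay below all 7 others. Ldha fell with alpha-amanitin by 3.34 on the log2(FPKM + 1) scale (SE 0.46, limma adjusted p = 0.00037), a scale that understates the change of genes at low FPKM. It was the only one of the 10 genes called under all 18 alternative settings, with limma adjusted p between 0.000104 and 0.00754. These settings are not independent. Leaving out a morpholino or mismatch control library cannot move the change, only its SE, and adding copies left it at -3.34. A replicate block and leaving out wild-type replicate 3 both gave -3.56.

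Ldhb (ENSMUSG00000030246.6, mm10 chr6:142490249-142507957, minus strand, protein coding) had 73.6 and 131 FPKM with alpha-amanitin, against 52.8, 106 and 63.9 FPKM in wild type. It had 118 and 87.3 FPKM with the Kdm5a+b morpholinos and 114 and 55.4 FPKM in the mismatch controls. The 4 groups overlapped, and alpha-amanitin minus wild type was 0.46 on the log2 scale (SE 0.40, limma adjusted p = 0.41). The deposited tables put bounds around every FPKM. The Ldhb value lay above its own upper bound in 8 of 9 libraries, all but mismatch control replicate 1, and none of the other 9 genes did so in any library. The cause is not known, so both the bounds and the FPKM of Ldhb, on which its levels and shares rest, are in doubt.

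Ldhb accounted for 100.0% and 99.9% of the summed FPKM of Ldha and Ldhb with alpha-amanitin, and for 79.0%, 91.6% and 90.1% in wild type. It was 91.8% and 94.7% with the Kdm5a+b morpholinos and 91.8% and 86.2% in the mismatch controls. Both alpha-amanitin shares lay above all others. The mean difference between alpha-amanitin and wild type was 13.1 percentage points (two-sided exact permutation p = 0.2, the smallest that 2 libraries against 3 can give), and that between the Kdm5a+b morpholinos and the mismatch controls was 4.23 points (two-sided exact permutation p = 0.667, with 0.333 the smallest possible for 2 against 2).

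**Figure D2:**
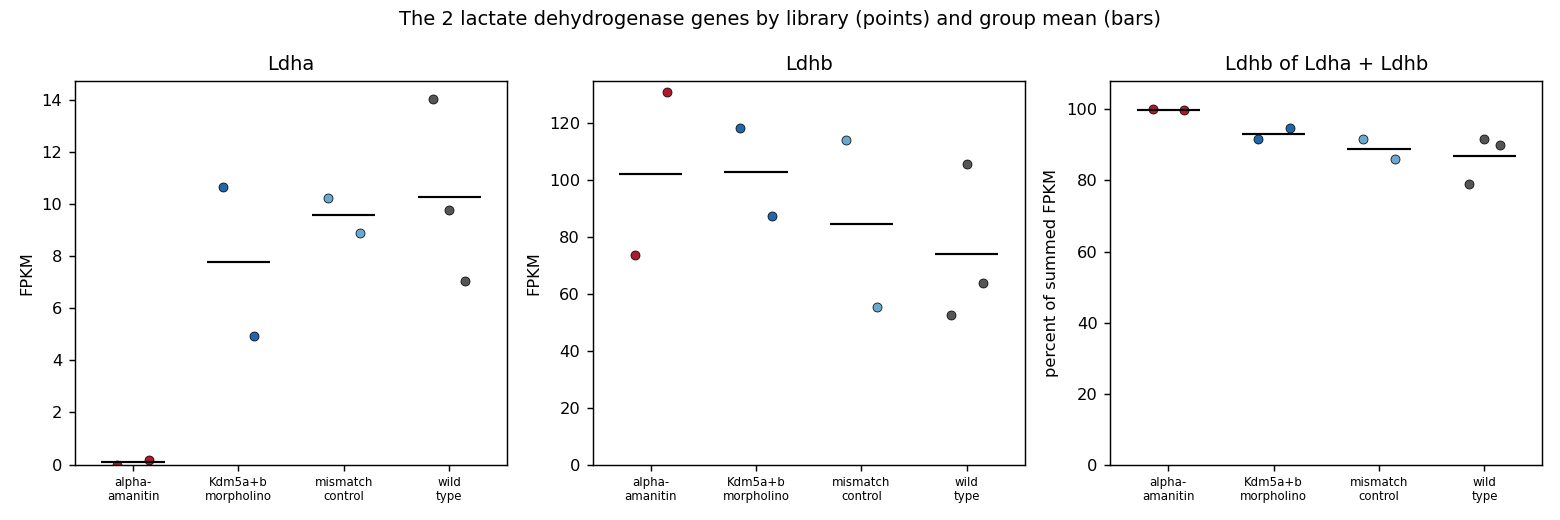
FPKM of Ldha (left) and Ldhb (middle), and Ldhb as a percent of the summed FPKM of both (right), with libraries as points and group means as bars; groups run from alpha-amanitin to wild type. Ldha is at or near 0 with alpha-amanitin only, Ldhb overlaps across all 4 groups, and the Ldhb share is 100.0% and 99.9% with alpha-amanitin against 79.0% to 91.6% in wild type.

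Pgk1 and Aldoa, from the middle of glycolysis, were also lower with alpha-amanitin. Pgk1 (ENSMUSG00000062070.7, mm10 chrX:106187100-106203699, plus strand), which makes ATP from 1,3-bisphosphoglycerate, had 0.190 and 0.157 FPKM with alpha-amanitin, against 3.21, 6.84 and 4.88 FPKM in wild type. The group means were 0.173 ± 0.0232 FPKM (SD, n = 2) and 4.98 ± 1.82 FPKM (SD, n = 3), so that the wild-type mean was 28.7 times the alpha-amanitin mean. That ratio is imprecise, since the deposited bounds of the 2 alpha-amanitin values were 0.0151 to 0.487 and 0 to 0.523 FPKM. The groups did not overlap, and Pgk1 fell by 2.30 on the log2 scale (SE 0.47, limma adjusted p = 0.00412). Aldoa (ENSMUSG00000030695.8, mm10 chr7:126795234-126800751, minus strand), the aldolase that splits fructose 1,6-bisphosphate, had 4.97 and 1.40 FPKM with alpha-amanitin, against 15.1, 17.9 and 17.7 FPKM in wild type. It fell by 2.24 on the log2 scale with no overlap (SE 0.45, limma adjusted p = 0.00389), and the wild-type mean was 5.31 times the alpha-amanitin mean.

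Pdha1 (ENSMUSG00000031299.10, mm10 chrX:160122209-160138413, minus strand), the E1 alpha subunit of pyruvate dehydrogenase, had 5.43 and 2.24 FPKM with alpha-amanitin, against 12.2, 43.7 and 10.7 FPKM in wild type. Wild-type replicate 2 stood far above the other 8 libraries, which reached at most 20.0 FPKM. Pdha1 fell by 2.06 on the log2 scale (SE 0.59, limma adjusted p = 0.0227), and the wild-type mean was 5.79 times the alpha-amanitin mean. That ratio depends on wild-type replicate 2. The change was -1.45 without wild-type replicate 2 (limma adjusted p = 0.0461) and -1.57 without alpha-amanitin replicate 2. The call was lost without alpha-amanitin replicate 2, with no filter, with only the 2 groups compared and after quantile normalization. Over all 18 alternatives the limma adjusted p ran between 0.0152 and 0.174, with 14 of them under 0.05.

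The 250 bases before the RefSeq start sites of these 4 genes and of Ldhb are shown because the 4 were lower with alpha-amanitin and Ldhb was not called. They are RefSeq sequences of build GRCm38.p6, the same assembly as mm10, written 5′ to 3′ on the gene's strand. Capitals mark ACGTG, a core of the hypoxia response element to which HIF-1 is known to bind, or its reverse complement CACGT. Both strands were searched, and matches that overlap each other are marked as 1 stretch.
Ldha, the first of 2 start sites, chr7:46845554-46845803, plus strand: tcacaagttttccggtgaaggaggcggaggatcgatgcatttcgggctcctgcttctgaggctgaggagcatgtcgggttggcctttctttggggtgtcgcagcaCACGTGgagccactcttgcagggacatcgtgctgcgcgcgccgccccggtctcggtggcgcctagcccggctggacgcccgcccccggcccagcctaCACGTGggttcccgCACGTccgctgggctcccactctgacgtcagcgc
Pgk1, chrX:106186850-106187099, plus strand: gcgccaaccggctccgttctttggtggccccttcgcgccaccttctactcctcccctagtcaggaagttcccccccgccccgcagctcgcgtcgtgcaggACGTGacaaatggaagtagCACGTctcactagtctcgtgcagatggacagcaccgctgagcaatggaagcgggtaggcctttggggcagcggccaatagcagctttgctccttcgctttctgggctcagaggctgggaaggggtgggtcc
Aldoa, the second of 3 start sites, chr7:126799255-126799504, minus strand: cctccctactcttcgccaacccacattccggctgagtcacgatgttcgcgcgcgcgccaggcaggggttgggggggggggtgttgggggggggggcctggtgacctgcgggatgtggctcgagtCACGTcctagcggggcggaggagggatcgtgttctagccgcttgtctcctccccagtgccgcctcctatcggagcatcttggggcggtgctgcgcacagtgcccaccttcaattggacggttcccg
Pdha1, chrX:160138431-160138680, minus strand: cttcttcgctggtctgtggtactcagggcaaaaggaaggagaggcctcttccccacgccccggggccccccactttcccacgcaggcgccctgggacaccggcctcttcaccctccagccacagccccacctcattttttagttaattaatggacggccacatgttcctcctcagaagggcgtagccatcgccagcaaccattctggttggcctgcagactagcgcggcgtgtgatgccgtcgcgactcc
Ldhb, chr6:142507958-142508207, minus strand: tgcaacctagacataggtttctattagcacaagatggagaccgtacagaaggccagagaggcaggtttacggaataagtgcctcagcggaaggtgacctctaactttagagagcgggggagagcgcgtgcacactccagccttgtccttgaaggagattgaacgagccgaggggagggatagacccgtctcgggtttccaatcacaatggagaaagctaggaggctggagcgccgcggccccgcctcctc

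The Ldha window held 3 marked stretches, the Pgk1 window 2 and the Aldoa window 1, and the Pdha1 and Ldhb windows held none. Of the windows not shown, that of the second Ldha start site and that of the first Aldoa start site held none, and that of the third Aldoa start site overlaps the one shown and holds the same stretch. All windows of Ldha and of Aldoa lie inside the annotated span of their gene. All 10 genes had a start site in the RefSeq table, with 16 windows in all. ACGTG on either strand was found in 4 of these 16 windows, from Aldoa, Ldha and Pgk1, and in 16.6% of all 32851 windows of that length. Counted by gene, 3 of the 10 genes had it in at least 1 window, as did 18.5% of all 27025 genes. The GC box GGGCGG was found on either strand in 8 of the 16 windows and in 32.7% of all windows, CCAAT in 7 of the 16 and in 33.9%, and TATAAA in 0 of the 16 and in 12.4%. A match is a description of the letters, not a binding site.

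Of the 10 genes, 4 were called lower with alpha-amanitin than in wild type (Aldoa, Pgk1, Ldha and Pdha1; limma, adjusted p under 0.05) and 0 were called higher. With TPM and with a pseudocount of 0.1, Hk1 and Eno1 were called lower as well. These 2 settings are not independent. The FPKM of a library summed to between 197500 and 235800, and TPM raised each library to a larger common sum before 1 was added. TPM therefore also acted like a smaller pseudocount. Of the 13137 genes tested, 25.1% were called lower and 4.31% higher. The median log2 change was -1.33 over the 10 genes and -0.56 over all genes tested. In 6 of the 10 genes both alpha-amanitin libraries lay below all wild-type libraries, which was so for 41.1% of the genes tested, and in 0 of the 10 both lay above, which was so for 13.4%. In bulk libraries, fewer embryos that transcribe a gene and less RNA of it per embryo cannot be told apart, and FPKM shows each gene only relative to the rest of its library. When the 9 libraries were forced to 1 common distribution (quantile normalization), which moved the median of all genes to 0.17, Ldha alone was called lower (adjusted p = 0.00584, over alternatives 0.000104 to 0.00754) and Gapdh was called higher by 1.47 (adjusted p = 0.0302, over alternatives 0.0302 to 1). Aldoa was then -1.30 (adjusted p = 0.0535, over alternatives 0.00178 to 0.0535), Pgk1 -1.19 (adjusted p = 0.0773, over alternatives 0.000985 to 0.0773) and Pdha1 -1.13 (adjusted p = 0.174). Lower calls were 85.4% of all calls as deposited and 51.3% after quantile normalization.

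**Figure D3:**
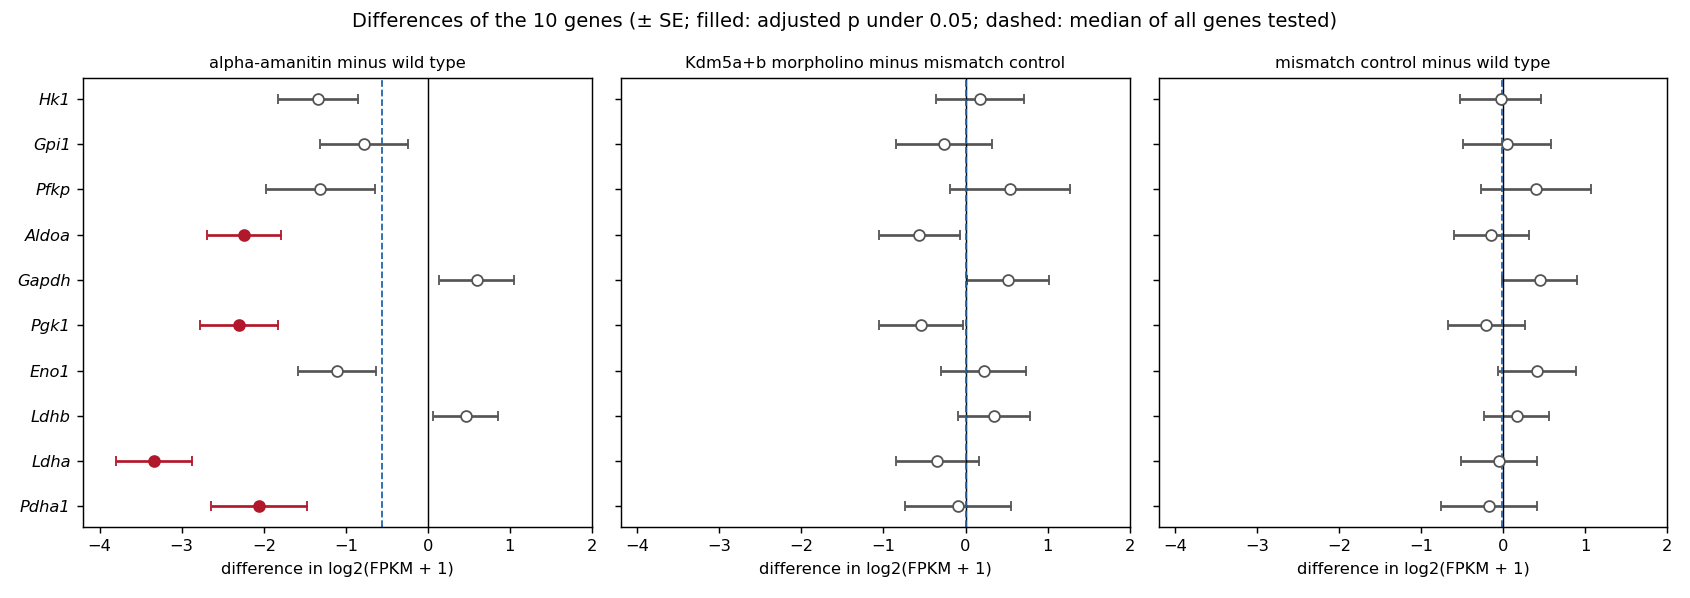
Difference in log2(FPKM + 1) of each of the 10 genes (x axis, ± SE) for alpha-amanitin minus wild type, Kdm5a+b morpholino minus mismatch control and mismatch control minus wild type; filled points have an adjusted p under 0.05 and the dashed line is the median of all genes tested. Filled points appear only in the first panel, for Aldoa, Pgk1, Ldha and Pdha1.

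Hk1 and Pfkp, of the first part of glycolysis, were not called with alpha-amanitin. Hk1, a hexokinase that traps glucose in the cell, had 0.161 and 0.0441 FPKM with alpha-amanitin, against 1.37, 2.52 and 1.58 FPKM in wild type. The libraries did not overlap, but the change of -1.34 (SE 0.49) had a limma adjusted p of 0.0635. Hk1 was called under 3 of 17 alternatives, a pseudocount of 0.1, a rescaling to TPM and a variance prior without a trend, with adjusted p between 0.0132 and 0.665 over all 17. Hk1 lies over the antisense gene Hk1os, whose highest FPKM was 1.35, and without a stated strand setting reads of the pair may not be told apart.

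Pfkp, the platelet-type phosphofructokinase of the committing step, had 3.60 and 0.350 FPKM with alpha-amanitin, against 10.8, 3.64 and 3.32 FPKM in wild type. It had 8.93 and 13.2 FPKM with the Kdm5a+b morpholinos and 11.7 and 4.23 FPKM in the mismatch controls. The ranges overlapped within both comparisons, and alpha-amanitin minus wild type was -1.31 (SE 0.67, limma adjusted p = 0.166).

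For Eno1, Gpi1 and Gapdh a large part of the signal stood at near-identical copies elsewhere in the genome, meaning other genes whose GENCODE M21 transcripts match at 95% identity or more over at least 200 bases. Eno1, the enolase that makes phosphoenolpyruvate, was listed at 0 and 0.284 FPKM with alpha-amanitin, against 0.715, 2.20 and 1.67 FPKM in wild type (change -1.11, SE 0.47, limma adjusted p = 0.105). Its processed pseudogene Gm4735, 99.6% identical over 1302 bases, stood at 0 in the alpha-amanitin libraries, against 4.89, 4.40 and 9.71 FPKM in wild type. Summed with its 2 copies in the files, Eno1 had 0 and 0.313 FPKM with alpha-amanitin and 5.61, 6.60 and 11.5 FPKM in wild type. The summed value fell by 2.90 (limma adjusted p = 0.000696). The sum was chosen as an alternative after the values had been seen and was fitted under no other setting. Without its copies, Eno1 had an adjusted p of 0.612 after quantile normalization.

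Gpi1, which converts glucose 6-phosphate to fructose 6-phosphate, had 0.267 and 1.61 FPKM with alpha-amanitin, against 1.81, 1.60 and 3.13 FPKM in wild type (change -0.78, SE 0.53, limma adjusted p = 0.302). Its pseudogene Gm1840, 98.7% identical over 1046 bases, had 1.31 and 2.35 FPKM with alpha-amanitin and 3.95, 8.01 and 3.70 FPKM in wild type. Gm1840 therefore stood above Gpi1 in all 9 libraries. The sum of the pair was not called either, at -1.21 (limma adjusted p = 0.125), and it too was fitted under no other setting.

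Gapdh, the dehydrogenase at the middle of the pathway and a common reference gene, had 1.39 and 0.281 FPKM with alpha-amanitin, against 0.484, 0 and 0.0396 FPKM in wild type. It had 0.848 and 1.74 FPKM with the Kdm5a+b morpholinos and 0.484 and 0.667 FPKM in the mismatch controls. It had 78 near-identical copies, 68 of them with a row in the files, and these copies summed to between 0.385 and 5.53 FPKM. In wild type the copies summed to 3.96, 0.385 and 1.15 FPKM. The pseudogene Gm8756 gave 3.86 FPKM of this in replicate 1 and 0 in replicates 2 and 3, so the wild-type sum rests largely on 1 library. Gapdh with its copies thus reached 6.20 FPKM at most, and alpha-amanitin minus wild type of that sum was 0.00 (adjusted p = 1), against 0.60 for Gapdh alone (SE 0.46, limma adjusted p = 0.353). Of the other genes, Pgk1 and Ldha had 4 copies each, of which 1 each was listed with an FPKM, at 0.0568 or less. Ldhb had 1 copy, a pseudogene not listed with an FPKM. Reads at copies that are not listed cannot be seen. Hk1, Pfkp, Aldoa and Pdha1 had no copies.

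**Figure D4:**
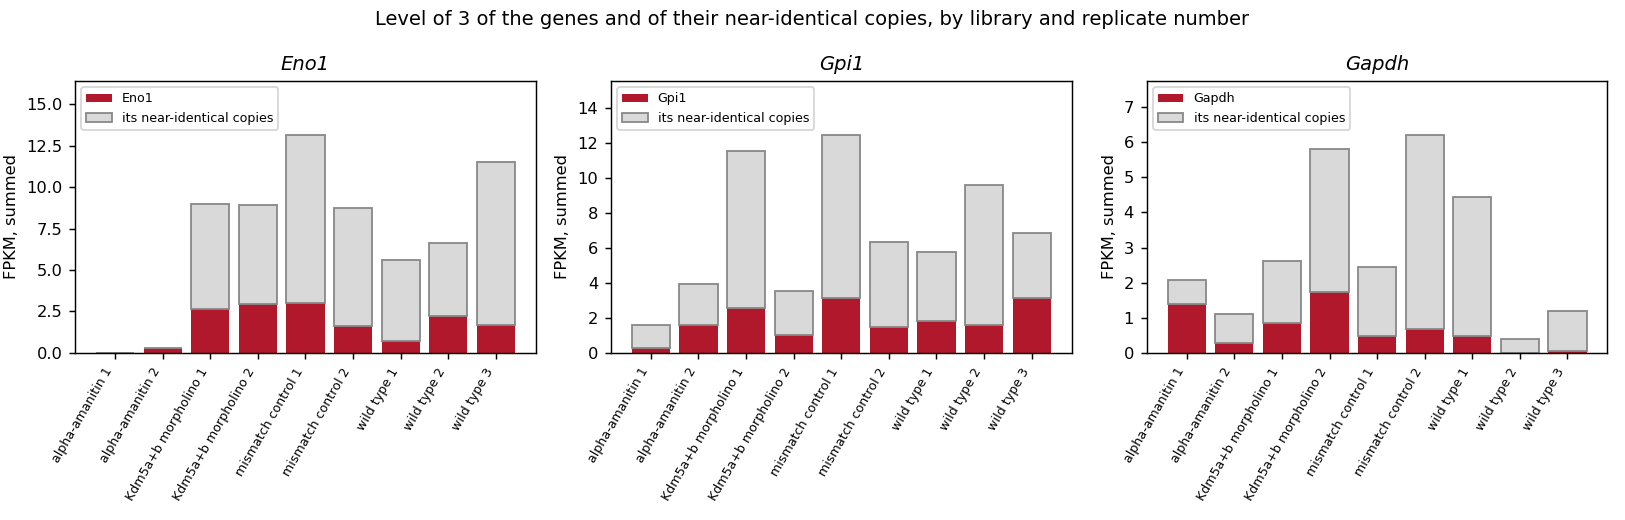
Summed FPKM (y axis) of Eno1, Gpi1 and Gapdh (red) and of their near-identical copies (grey) in each of the 9 libraries, ordered from alpha-amanitin to wild type. The grey part is larger than the red part for Gpi1 in every library and for Eno1 in all 7 libraries without alpha-amanitin, and no Gapdh stack passes 6.20 FPKM.

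None of the 10 genes was called between the Kdm5a+b morpholinos and the mismatch controls. Their changes ran from -0.56 for Aldoa to 0.54 for Pfkp, with SE between 0.44 and 0.73, and the median was 0.04. No gene of the 13137 was called (limma, 0% in either direction), 414 of them had an unadjusted p under 0.05, and 0 of the 10 did. Aldoa had 10.6 and 9.37 FPKM with the Kdm5a+b morpholinos, against 20.9 and 10.9 FPKM in the mismatch controls. Pgk1 had 3.33 and 1.75 FPKM with the morpholinos, against 4.35 and 3.71 FPKM in the mismatch controls. Pdha1 had 20.0 and 10.9 FPKM with the morpholinos, against 16.3 and 15.4 FPKM in the mismatch controls. Aldoa and Pgk1 were the genes with both morpholino libraries below both controls, 2 of 10 where 16.8% of all genes did so, and Gapdh was the 1 gene with both above, where 16.5% did so.

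Eno1 had 2.67 and 2.96 FPKM with the Kdm5a+b morpholinos, against 3.03 and 1.65 FPKM in the mismatch controls. Hk1 had 1.04 and 3.64 FPKM with the morpholinos, against 1.87 and 1.58 FPKM in the mismatch controls. Gpi1 had 2.54 and 1.03 FPKM with the morpholinos, against 3.16 and 1.48 FPKM in the mismatch controls. For these 3 genes the ranges overlapped, and the 2 morpholino libraries of Hk1 lay on either side of both controls.

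The mismatch controls against wild type, which asks what injection and control morpholinos do, also gave 0 calls among the 10 genes and among all genes (limma, 0% in either direction, 616 genes and 0 of the 10 with an unadjusted p under 0.05). The median of the 10 genes was 0.01 on the log2 scale. Gapdh was the 1 gene with both mismatch controls above all wild-type libraries, which 9.26% of all genes showed, and none lay below, which 8.85% showed. The comparisons of alpha-amanitin and of the mismatch controls with wild type share the wild-type libraries, and the mismatch controls also stand in the morpholino comparison.

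Among the other enzymes of glycolysis, 10 of 20 genes in the files passed the filter on low FPKM, and with alpha-amanitin 2 of these were lower and 0 higher (median -0.82). Of all 13137 genes tested, 25.1% were called lower and 4.31% higher. The counts of this list and of those below stand beside these shares. Pkm, the pyruvate kinase of the last step, had 1.15 and 0.0724 FPKM with alpha-amanitin, against 26.99, 28.6 and 32.7 FPKM in wild type, and fell by 4.32 (SE 0.42, limma adjusted p = 3.57e-05). Pfkl, the liver-type phosphofructokinase, had 2.21 and 0.0701 FPKM with alpha-amanitin, against 3.38, 15.9 and 4.53 FPKM in wild type, and fell by 2.00 (SE 0.67, limma adjusted p = 0.0448). The others named here were tested but not called: Tpi1, the triose phosphate isomerase, at -1.33 (limma adjusted p = 0.167), Eno3 at -1.73 (0.0689), Pgam1 at -0.36 (0.58), Pfkm at -0.47 (0.51) and Hk2 at -0.20 (0.832).

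Of the tissue-specific relatives of the 10 genes, Gapdhs did not exceed 0.00678 FPKM in any library, Aldoc reached at most 0.829, Eno2 1.10, Pdha2 2.15 and Pgk2 4.48 FPKM. Hk3 had at most 0.339 FPKM in 8 libraries and 7.54 FPKM in Kdm5a+b morpholino replicate 2. Ldhc, the sperm lactate dehydrogenase, had 0.405 and 0 FPKM with alpha-amanitin, against 0.919, 7.18 and 3.47 FPKM in wild type, and fell by 1.80 (SE 0.60, limma adjusted p = 0.0453). It was the 1 gene called of 2 tested among the other lactate dehydrogenases. Ldhc, Pgk2, Gapdhs and Pdha2 also stand on the list of sperm markers, whose sum ran from 0.414 to 3.95 FPKM with alpha-amanitin and from 2.42 to 14.3 in wild type, and the part of sperm RNA was not tested.

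The carriers that move glucose, lactate and pyruvate held 4 genes lower and 0 higher with alpha-amanitin of 7 tested (median -2.47). Over all genes tested, the shares were 25.1% lower and 4.31% higher. Slc16a1, the monocarboxylate transporter MCT1 that carries lactate and pyruvate across the cell membrane, had 0.0253 and 0.114 FPKM with alpha-amanitin, against 19.5, 13.6 and 12.6 FPKM in wild type, and fell by 3.90 (SE 0.38, limma adjusted p = 3.73e-05). Mpc2, a subunit of the mitochondrial pyruvate carrier, had 2.36 and 0.487 FPKM with alpha-amanitin, against 35.3, 43.5 and 45.5 FPKM in wild type, and fell by 4.24 (SE 0.41, limma adjusted p = 3.67e-05). The glucose transporter Slc2a3 fell by 2.96 (SE 0.46, limma adjusted p = 0.000795). Both Slc16a1 and Mpc2 were higher in all 7 other libraries than in either alpha-amanitin library.

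In the pyruvate dehydrogenase complex and its regulators, 2 of 10 tested genes were lower and 0 higher with alpha-amanitin (median -0.12). The shares of all genes tested were again 25.1% and 4.31%. Pdhb, the E1 beta partner of Pdha1, had 3.29 and 5.79 FPKM with alpha-amanitin, against 21.7, 53.7 and 52.7 FPKM in wild type, and fell by 2.91 (SE 0.42, limma adjusted p = 0.000493). Pdp2, a phosphatase that reactivates the E1 subunit, was listed at 0 and 0 FPKM with alpha-amanitin, against 30.2, 30.8 and 35.0 FPKM in wild type (change -5.04, SE 0.31, limma adjusted p = 3.64e-06). The other parts of the complex were not called. Dlat, the E2 subunit, had 46.6 and 16.6 FPKM with alpha-amanitin, against 5.73, 20.1 and 7.86 FPKM in wild type (1.42, SE 0.70, limma adjusted p = 0.153). Dld, the E3 subunit, was at 0.17 (limma adjusted p = 0.807) and Pdhx, the E3-binding subunit, at 0.34 (limma adjusted p = 0.752).

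Of the glycolysis regulators, 7 were tested, of which 2 fell and 0 rose with alpha-amanitin (median -0.65), beside 25.1% and 4.31% of all genes. These were Pfkfb4 at -2.05 (SE 0.49, limma adjusted p = 0.00927) and Pfkfb3 at -1.98 (SE 0.53, limma adjusted p = 0.0165), both of which make fructose 2,6-bisphosphate, an activator of phosphofructokinase. Neither of the 2 tested genes of pyruvate carboxylation and glucose synthesis was called.

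Calls in both directions were found in the pathways beside and after pyruvate. In the pentose phosphate pathway, which branches from glucose 6-phosphate, 2 of 9 tested genes were higher and 2 lower (median -0.83). G6pdx, its entry enzyme, had 102 and 153 FPKM with alpha-amanitin, against 58.3, 38.1 and 56.7 FPKM in wild type, and rose by 1.30 (SE 0.28, limma adjusted p = 0.00532). Its relative G6pd2 rose by 1.23 (SE 0.33, limma adjusted p = 0.0163), and reads may be split between the pair. Pgd, which oxidises 6-phosphogluconate, fell by 3.35 (SE 0.47, limma adjusted p = 0.000384) and the transketolase-like gene Tktl1 by 2.32 (SE 0.40, limma adjusted p = 0.00148). In the citric acid cycle, 1 of 18 tested genes was higher and 4 lower (median -0.49). Cs, the citrate synthase that takes in acetyl-CoA, rose by 0.82 (SE 0.22, limma adjusted p = 0.0176), and Mdh2, the mitochondrial malate dehydrogenase, fell by 3.32 (SE 0.30, limma adjusted p = 2.11e-05). Idh3g and Idh3b, subunits of isocitrate dehydrogenase, fell by 3.27 (SE 0.50, limma adjusted p = 0.000677) and 2.48 (SE 0.53, limma adjusted p = 0.00506). Over these 8 lists, 17 genes were called lower and 3 higher, beside 25.1% lower and 4.31% higher of all genes tested. All 20 were also called in the same direction with TPM, and after quantile normalization 10 of the 17 and all 3 were. Quantile normalization also called 6 further genes higher, Pfkfb1, Pfkfb2, Bsg, Idh3a, Dlst and Suclg2, so that the balance was then 10 lower and 9 higher. TPM added Eno3 and Myc as lower and Suclg2 as higher, for 19 lower and 4 higher. The 7 not called after quantile normalization were Pfkl, Pfkfb3, Pfkfb4, Ldhc, Slc2a8, Idh3b and Ogdh, none of which changed direction. None of the genes of these lists was called in the other 2 comparisons.

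**Figure D5:**
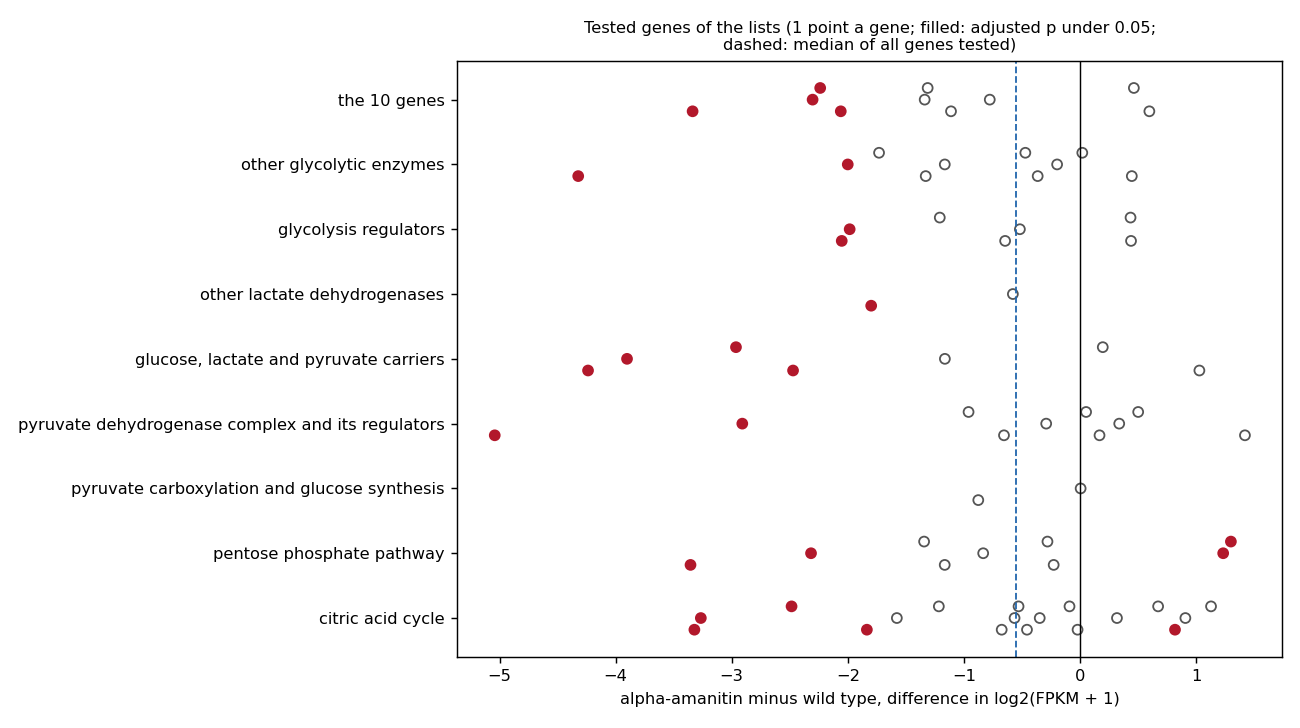
Alpha-amanitin minus wild type in log2(FPKM + 1) (x axis) for each tested gene, 1 point a gene, of the 10 genes and of 8 lists of related genes; filled points have an adjusted p under 0.05 and the dashed line is the median of all genes tested, -0.56. Filled points to the right of 0 are G6pdx, G6pd2 and Cs.

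For the 5 genes with a group mean of 10 FPKM or more, the genes most like them over the 9 libraries were named by Pearson's r of log2(FPKM + 1). These values are descriptions, since the libraries share their groups and the alpha-amanitin pair lies apart for Ldha, Aldoa and Pdha1. Ldha was most like Tmem39b (r = 0.99), Slc16a1 (r = 0.99) and Gm13217 (r = 0.99). Aldoa was most like Bahd1 (r = 0.99), Gm15210 (r = 0.99) and Iqcf1 (r = 0.98), and Pdha1 was most like Gm11633 (r = 0.98), Gm2056 (r = 0.97) and Cct8 (r = 0.97). Pfkp was most like Bud13 (r = 0.96), Tppp3 (r = 0.95) and Mtdh (r = 0.95). Ldhb was most like Ahsa1 (r = 0.92), which had 53.0 and 67.2 FPKM with alpha-amanitin, against 39.8, 64.0 and 52.7 FPKM in wild type, followed by Slc4a1ap (r = 0.91) and Ocrl (r = 0.91).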

How the data were processed

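Whole-cell lysates gave the RNA (QIAGEN RNeasy Micro) for TruSeq libraries, per the labels' protocols. The submitters' processing notes name the build mm10 and, over the series, Cufflinks, BWA, SAMtools, Picard, Trimmomatic and Bismark (version 12.5). For the RNA-seq reads, the sources used here name no aligner, strand setting or annotation release. The authors deposited 1 Cufflinks table per library with the FPKM of 32287 genes and its bounds, per the file headers. FPKM divides by each library's own total, so a change in total RNA does not show, and reads shared between copies may be split or lost.

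The 10 genes were matched by symbol. limma 3.58.1 (R 4.3.3) was fitted to log2(FPKM + 1) of all 9 libraries with group as the only term (5 residual degrees of freedom), on 13137 genes with FPKM of 1 or more in at least 2 libraries, with moderated variances (eBayes, trend option). Tests were two-sided, p-values were adjusted by Benjamini-Hochberg over all genes tested, and calls were made under 0.05. All 10 genes passed the filter, which Hk1, Gpi1, Pgk1, Eno1 and Gapdh did with few FPKM. The fit was tested on simulated data with known changes. The 10 genes and the gene lists were chosen with earlier results of these data known. From each list the 3 called genes with the largest change in each direction were named, with relatives of the 10 genes and the core enzymes whatever their change.

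Positions count from 1; the files' starts, read as counting from 0, equalled those of GENCODE M21 for 8 of the 10 genes. Copies were found with megablast against GENCODE M21 transcripts, leaving out genes that overlap the same locus. Replicate numbers did not pair libraries: deviations of same-numbered libraries from their group means correlated at -0.05 to 0.04. The labels do not say whether replicates were separate collections of embryos, so the spread behind the p-values may be technical. Alternatives were another pseudocount, other filters, TPM, quantile normalization, a replicate block, fits on only the groups compared, no variance trend, each library left out, and copies added. ChIP-seq, bisulfite and small-input RNA-seq samples were not used here.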

Additional observations from a re-analysis of the deposited data

How the results depend on the processing

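Of the 10 genes, the count called between alpha-amanitin and wild type was 4 as reported, 3 to 4 when 1 library was left out, 4 with a replicate block (the same 4 genes), 6 with a pseudocount of 0.1 and with TPM, 5 with a variance prior without a trend and with copies added, 3 with no filter, with the stricter filter and with only the 2 groups compared, and 2 after quantile normalization. It was 0 in the other 2 comparisons under all alternatives. The count over all genes between the Kdm5a+b morpholinos and the mismatch controls was 27 with no filter and 0 to 3 with 1 library left out, and between the mismatch controls and wild type it was 11 with no filter and 0 to 3 with 1 library left out. With alpha-amanitin, quantile normalization turned the change of Gpi1 to 0.26 and adding copies turned that of Gapdh to 0. Pdha1 lost its call with no filter (adjusted p = 0.112) and with only the 2 groups compared (adjusted p = 0.0806), and the cause was not tested. The stricter filter removed Pgk1, Hk1, Gpi1, Eno1 and Gapdh, so the 3 called there were of 5 tested and Pgk1 was not tested. Directions of genes never called turned in the other comparisons. Adding copies turned Gapdh to -0.01 and Eno1 to -0.24 between the Kdm5a+b morpholinos and the mismatch controls, TPM turned Hk1 to 0 and quantile normalization turned Ldha to 0.01 between the mismatch controls and wild type. With 1 library left out, the morpholino comparison ran from -0.42 to 0.77 for Hk1, -0.66 to 0.14 for Gpi1, -0.10 to 1.18 for Pfkp, -0.08 to 0.52 for Eno1, -0.16 to 0.86 for Ldhb, -0.83 to 0.14 for Ldha and -0.50 to 0.32 for Pdha1. Mismatch control against wild type ran from -0.15 to 0.14 for Hk1, -0.33 to 0.42 for Gpi1, -0.24 to 1.04 for Pfkp, -0.59 to 0.30 for Aldoa, -0.44 to 0.01 for Pgk1, -0.35 to 0.68 for Ldhb, -0.27 to 0.18 for Ldha and -0.53 to 0.44 for Pdha1.

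With 2 or 3 libraries a group, changes of the size seen in the morpholino comparison (SE 0.44 to 0.73) could not be told from none. The half-width of the deposited bounds had a median of 87.5% of the FPKM for Hk1, 96.0% for Gapdh and 15.1% for Aldoa, and covers counting and assignment only. Where 1 library was left alone in a group, it was assumed to vary like the others.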
